A study of Mus musculus with 24 samples.

Results

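The measurement described here is a difference of differences in newborn mouse liver: how far the effect of a low protein maternal diet depended on whether the dams also drank taurine. It uses all 12 liver arrays of the series, out of 24 arrays in all, and 18193 genes. Each gene is represented by the probe set (a group of short array probes for one transcript) with a single gene symbol and the highest mean over the 12 liver arrays. All 18193 genes were tested, with no filter on low values.

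The pups were C57BL/6 mice collected on day 0, and their dams received the diets from day 1 of pregnancy. NP livers came from pups of dams on a diet with 20% casein, and LP livers from pups of dams on 8% casein. NPtau and LPtau livers came from the same diets with 1% taurine added to the drinking water of the dams. Each of these 4 groups had 3 arrays, which the labels call biological replicates without saying whether they came from separate litters, so p-values cover only the spread among these arrays. Expression is given on the log2 scale, on which 1 unit is a doubling. For each gene the interaction is (LPtau minus NPtau) minus (LP minus NP): it is positive where low protein lowered a gene less, or raised it more, with taurine than without.

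Taurine is a sulfur-containing amino acid-like molecule that the liver makes from cysteine and conjugates to bile acids. A fetus depends largely on the supply from its mother and placenta. At birth the liver takes over glucose production, breaks down amino acids and still holds many blood-forming cells, so its RNA mixes hepatocytes with vessel and immune cells, and a fall in the number of one cell type cannot be told apart from less RNA per cell.

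The livers carried the RNA of hepatocytes: 9 of 10 defining markers were measured, and their mean levels, between 8.97 and 14.9, all lay above the median gene. Defining skeletal muscle markers lay between 4.1 and 6.94. Xist and 3 Y-linked genes divided the arrays into 6 female and 6 male pups, with 1 female in NP, 2 in NPtau, 2 in LP and 1 in LPtau. Sex therefore moved with the interaction, and the leading genes below were also examined within each sex. Genes that should be silent, Xist in males and the Y-linked genes in females, read 3.5 to 5.69; no detection calls were used here, so a level in that range may be background, and a difference that reaches into it is given as measured, with no fold. LP replicate 1 and NPtau replicate 2, both female, stood farther from their group means (root mean square deviation 0.312 and 0.307) than the other 10 arrays (0.168 to 0.226).

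No gene passed an adjusted p of 0.05 for the interaction in limma, a linear model with shared variance, after Benjamini-Hochberg adjustment over all genes; the smallest adjusted p was 0.201. At an unadjusted p under 0.05, 1540 genes leaned to an interaction, a word used below for this threshold only (8.46% of the genes, where 5% of tests would fall there by chance), 739 of them higher (4.06%) and 801 lower (4.4%). At an unadjusted p under 0.001 there were 49 genes, 38 higher and 11 lower, against the 18.2 that chance gives. None of the genes named below is a call for the interaction in this fit. The leading genes were picked by p and by size under a level rule, and some of the other named genes did not lean. Single arrays mattered: without LP replicate 1, which stood apart, 8 genes were called (Adnp2, C4bp, Cyp2j5, Fars2, Fem1b, Nfe2l2, Pura and Tmem185b) and 2783 leaned, and without NPtau replicate 2, 4 were called (Rab30, S1pr3, Sox4 and Sult3a1). All 12 calls were positive. No permutation test was run for single genes. For a difference of 3 against 3 arrays an exact one cannot go below a two-sided p of 0.1, a limit for 1 pair of groups and not for the interaction.

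The leanings came mostly from the pups without taurine. Low protein called 425 genes in LP minus NP (2.34%, adjusted p under 0.05 in limma) and 0 in LPtau minus NPtau (smallest adjusted p 0.084). At an unadjusted p under 0.05 there were 4125 genes (22.7%) in the first and 863 (4.74%) in the second, where chance gives 5%. The count of 425 rested on single arrays: leaving out NP replicate 1, 2 or 3 gave 21, 181 or 48 calls, and leaving out LP replicate 1, 2 or 3 gave 2013, 30 or 29. It was 674 without NPtau replicate 2, and 241 and 252 without LPtau replicates 1 and 2. These 2 differences share no arrays. Taurine with normal protein, NPtau minus NP, had 500 genes at an unadjusted p under 0.05 (2.75%), and LPtau minus LP had 1543 (8.48%). Of the 1540 leaning genes, 1129 (73.3%) had opposite signs in LP minus NP and LPtau minus NPtau, against 42.1% of all genes. LP was the group farthest from the other groups in 965 of the 1540 (62.7%, against 42% of all genes; 40.2% without NPtau replicate 1), NP in 367, LPtau in 123 and NPtau in 85. The median size of LP minus NP was 0.485 among the 1540 genes and that of LPtau minus NPtau 0.157, against 0.193 and 0.107 over all genes. Since the p-value was computed from these same differences, the shares describe the leaning genes and test nothing.

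**Figure D1:**
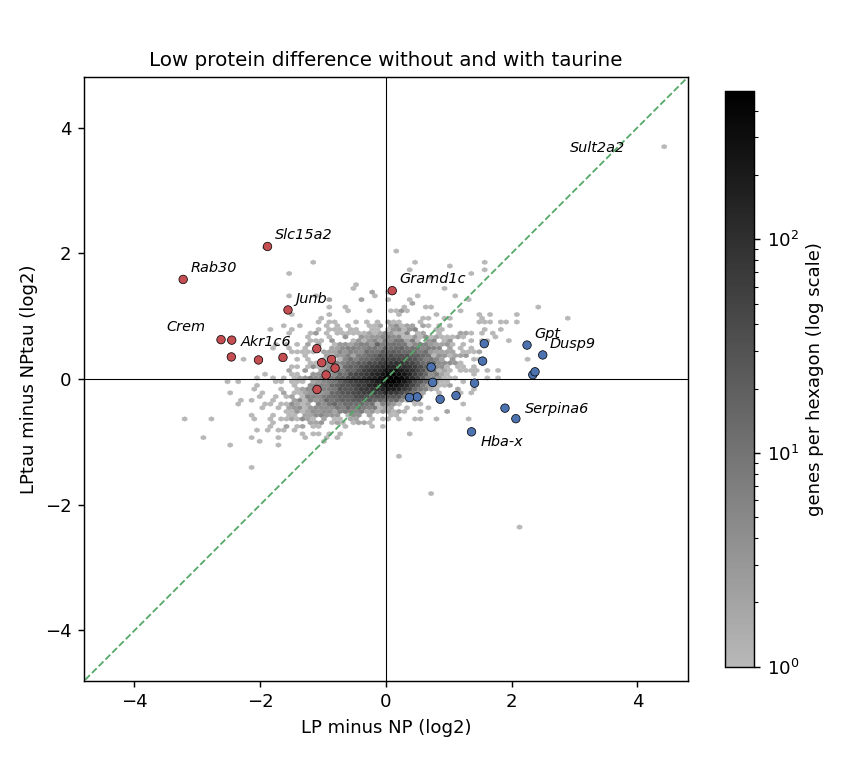
Each gene's low protein difference without taurine (LP minus NP, horizontal, log2) against that with taurine (LPtau minus NPtau, vertical, log2); hexagon shade is the number of genes, points are the 31 leading genes with a positive (red) or negative (blue) interaction, and the dashed line marks equal differences. Most red points lie left of 0 on the horizontal axis and most blue points right of it, while the vertical values stay nearer to 0; Sult2a2 lies close to the dashed line.

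Direction also moved with the level of a gene. Among the 9097 genes at or above the median level, the median interaction was 0.108 and 593 genes leaned higher (6.52%) against 197 lower (2.17%). Among the genes below it the median was -0.118, with 146 leaning higher (1.61%) and 604 lower (6.64%). Cyclic loess between arrays, which evens out intensity-dependent differences, brought these medians to 0.0367 and -0.0454. Whether array normalization had a part in the split was not tested further.

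The leading genes are the 12 with the smallest p in each direction and the 6 with the largest interaction in each direction, restricted to named genes whose highest group mean reached the median level, which gives 31 genes, 15 higher and 16 lower. LP and NP arrays did not overlap in 27 of the 31 (29.2% of all genes), LPtau and NPtau arrays in 7 (8.89%), LPtau and LP in 29 (13.8%) and NPtau and NP in 14 (7.84%). For 23 of them LP minus NP was itself called, and 8 of these calls held without each array in turn: Fars2, Abca8b, Npat, Dusp9, Hal, Gpt, Pde6c and Prpsap1. Without NP replicate 1, 8 of the 23 were called, without NP replicate 3 and LP replicate 2, 12 each, and without LP replicate 3, 9. All 31 kept their sign in female arrays alone, in male arrays alone and with sex as a covariate, where 29 stayed at an unadjusted p under 0.05. Since they were chosen on these same arrays, and each sex leaves 2 groups with 1 array, this is a description and no support.

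The largest positive interaction of the leading genes was that of Rab30, a Golgi GTPase. Its log2 level was 11.34, 11.40 and 10.64 in the NP livers, 10.34, 7.90 and 9.94 in NPtau, 7.88, 8.00 and 7.82 in LP and 11.38, 10.34 and 11.21 in LPtau. All LP arrays lay below all NP and all LPtau arrays, and NPtau replicate 2 read as low as LP. Rab30 fell 9.36-fold from NP to LP (log2 -3.23 ± 0.52 SE, n = 3 per group; limma, adjusted p = 0.0175). LPtau minus NPtau was 1.58 ± 0.52, and the interaction was 4.81 with a 95% interval of 3.19 to 6.43. Taurine alone also went with a lower level, NPtau minus NP being -1.73.

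Enzymes that act on steroids and other small molecules were among the higher leaders. Sult3a1, a cytosolic sulfotransferase, read 6.90, 6.74 and 6.54 in NP, 5.80, 7.46 and 6.30 in NPtau, 4.37, 4.46 and 3.98 in LP and 6.92, 7.15 and 6.55 in LPtau. The LP livers stood below the other 9, which overlapped one another. It fell by 2.46 from NP to LP (limma, adjusted p = 0.0108), and its interaction as measured was 2.81 (95% interval 1.76 to 3.86). Its LP values lay in the range of silent genes. Akr1c6, an aldo-keto reductase that acts on 17-ketosteroids, read 9.01, 8.34 and 9.22 in NP, 7.80, 9.45 and 9.41 in NPtau, 6.03, 6.51 and 6.67 in LP and 9.41, 9.29 and 9.81 in LPtau. The LP livers again lay below all others, with a fall of 5.48-fold (limma, adjusted p = 0.0177) and an interaction of 3.07 (1.83 to 4.31). Of the 14 measured aldo-keto reductases 3 leaned higher (21.4%, against 4.06% of all genes): Akr1c6, Akr1c18 (1.37) and Akr1c20 (1.38). These are related genes in one cluster, so probes may be shared between them.

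Genes that respond early to cyclic AMP and hormones leaned higher too. Crem, a cyclic AMP-responsive transcription factor, read 8.51, 8.11 and 8.73 in NP, 7.06, 7.36 and 8.41 in NPtau, 6.61, 5.19 and 5.68 in LP and 8.22, 7.12 and 9.37 in LPtau. LP lay below each other group, and LPtau spanned more than 2 log2 units. LP replicates 2 and 3 lay in the range of silent genes. Crem fell by 2.62 from NP to LP (limma, adjusted p = 0.0368) and had an interaction of 3.25 (1.57 to 4.93). Klf10, a zinc finger repressor, read 8.47, 8.22 and 8.41 in NP, 7.93, 8.17 and 8.23 in NPtau, 6.33, 7.02 and 6.84 in LP and 8.02, 8.32 and 9.02 in LPtau. It fell in LP (-1.64 ± 0.24; limma, adjusted p = 0.0142), LPtau minus NPtau was 0.34 ± 0.24, and the interaction was 1.98. Junb, a member of the AP-1 factors, had an interaction of 2.66 but wide groups: 6.62 to 9.33 in NPtau and 6.17 to 7.96 in LP.

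Of all genes 4.06% leaned higher and 4.4% lower, and of those at or above the median level 6.52% and 2.17%. Of the 24 cyclic AMP and immediate early genes, 19 lay at or above it, and 7 leaned higher and 0 lower (limma, unadjusted p under 0.05). Beside Crem, Klf10 and Junb these were Pde4d, a cyclic AMP phosphodiesterase (1.98 ± 0.45), Sik1, a kinase that restrains cyclic AMP signalling (0.72), Ier3 (0.95) and Cebpb, a liver transcription factor (0.65). The list's median LP minus NP was 0.0604, near 0, because 13 members were above 0 and 11 below. The median LPtau minus NPtau was 0.479, with 20 of 24 above 0. The median interaction of the list was 0.401, but 0.161 without LPtau replicate 2 and 0.85 without NPtau replicate 2.

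Fars2, which charges phenylalanine to its tRNA in mitochondria, had the smallest p of all named genes. It read 9.38, 9.56 and 9.25 in NP, 8.92, 9.04 and 8.99 in NPtau, 8.5, 8.15 and 8.48 in LP and 9.31, 9.31 and 9.11 in LPtau. The 4 groups were narrow: LP lay below the other 3, and NPtau lay below both NP and LPtau. Its interaction was 1.28 ± 0.18 (95% interval 0.90 to 1.67; limma, adjusted p = 0.201), made of a fall of 2.03-fold in LP and a LPtau minus NPtau of 0.26.

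Gramd1c, a membrane protein that binds sterols, had the reverse make-up. Its levels were 7.48, 7.89 and 7.82 in NP, 7.24, 7.39 and 7.29 in NPtau, 7.58, 8.12 and 7.80 in LP and 8.57, 9.02 and 8.55 in LPtau. LP and NP overlapped (0.10 ± 0.17), while LPtau stood above every other array. LPtau minus NPtau was 1.41 ± 0.17 (limma, unadjusted p = 4.61e-06, adjusted p = 0.084), a ratio of 2.65, and the interaction was 1.31 (0.78 to 1.84). Slc15a2, a transporter of small peptides, drew on both differences, with LP minus NP at -1.88 and LPtau minus NPtau at 2.11. Its interaction of 3.99 was imprecise, with a 95% interval of 1.43 to 6.56. NPtau ranged from 4.50, in the range of silent genes, to 7.13.

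The other higher leaders had smaller interactions. Abca8b, a lipid transporter of the ABC family (0.98), Tkfc, which phosphorylates the fructose product glyceraldehyde (1.18), Npat, a coactivator of histone genes (0.93), and Eif1a, a translation initiation factor (1.02), each fell in LP by a log2 change of between 0.81 and 1.10 (limma, adjusted p at most 0.0172). Stard9, a kinesin (2.33), and Ralgapa2, a subunit of the GTPase-activating complex for Ral (1.58), fell as well. In each of the 6 genes all LP arrays lay below all NP and all LPtau arrays.

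**Figure D2:**
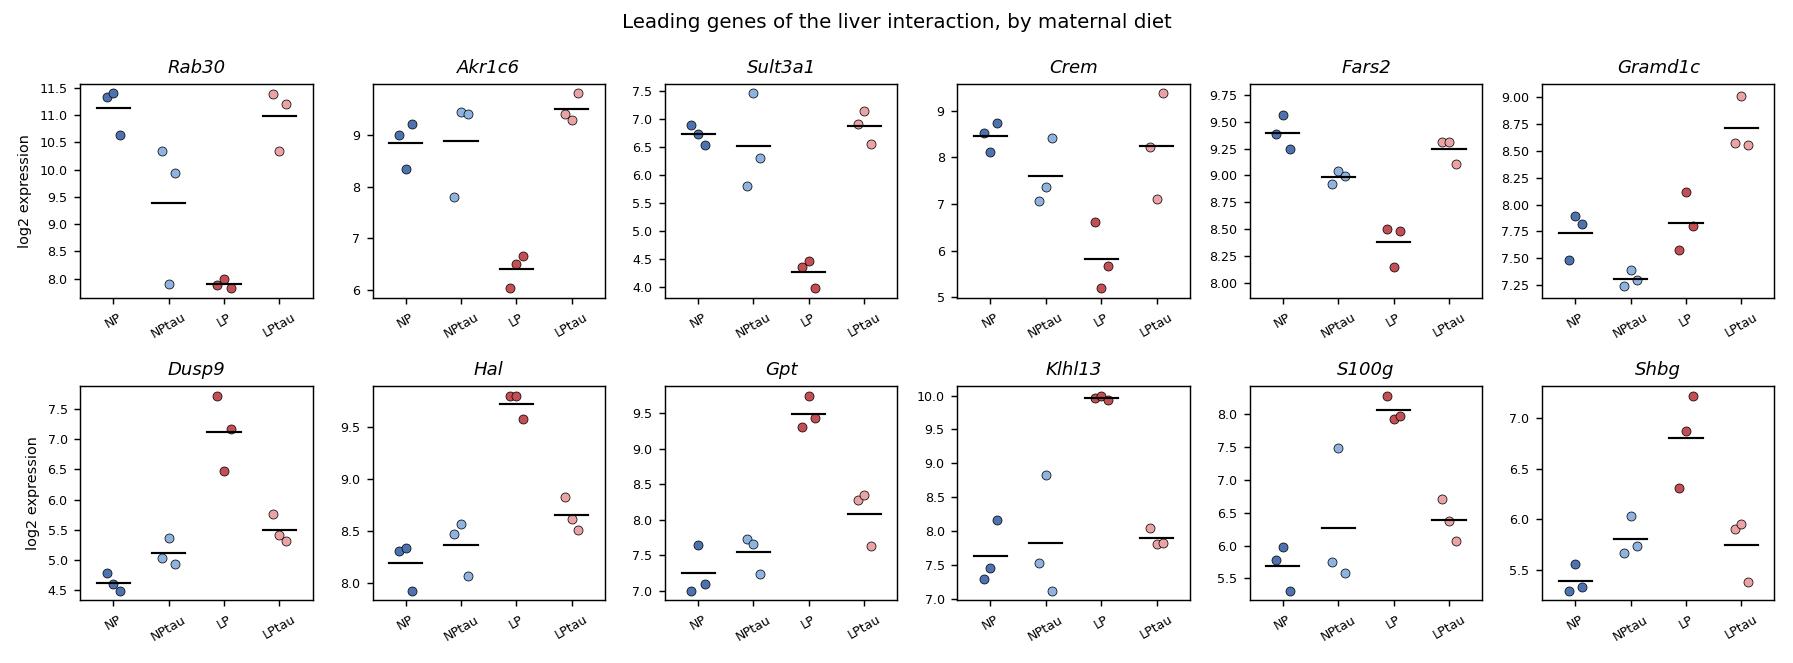
Log2 expression of 12 of the 31 leading genes in each liver array (points) with the group mean (line), for the 4 maternal diets; vertical axes differ between panels and do not start at 0. In the top row the LP arrays lie lowest, except for Gramd1c, where LPtau lies highest, and Rab30, where NPtau replicate 2 reads as low as LP. In the bottom row the LP arrays lie highest.

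The lower leaders were mostly genes with higher values in LP. The level rule bears on this: 6 of the 16 (Dusp9, Shbg, Psca, Arhgef19, Serpina6 and S100g) reached the median level of 6.41 through their LP mean alone, so they could have been named only by being high there. Dusp9, a MAP kinase phosphatase, read 4.79, 4.61 and 4.49 in NP, 5.03, 5.37 and 4.93 in NPtau, 7.72, 6.47 and 7.17 in LP and 5.76, 5.41 and 5.31 in LPtau. Every LP array lay above every other array, and NP was the lowest group. Its NP and NPtau values, and those of LPtau replicates 2 and 3, lay in the range of silent genes. Dusp9 rose by 2.49 in LP (limma, adjusted p = 0.00376) with a LPtau minus NPtau of 0.38 ± 0.26, and its interaction was -2.11 (95% interval -2.92 to -1.30). Among the 15 measured MAP kinase phosphatases it was the 1 that leaned lower (6.67%, against 4.4% of all genes), while 3 leaned higher (20%, against 4.06%).

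Enzymes that break down amino acids followed. Hal, histidine ammonia-lyase, which starts histidine breakdown, read 8.31, 8.33 and 7.92 in NP, 8.47, 8.56 and 8.07 in NPtau, 9.80, 9.79 and 9.58 in LP and 8.82, 8.62 and 8.51 in LPtau. LP stood above the other 9 arrays, which lay within 1 log2 unit of each other. Hal rose 2.9-fold (limma, adjusted p = 0.00376), LPtau minus NPtau was 0.29 ± 0.16 and the interaction was -1.25 (-1.74 to -0.76). Its promoter is shown because Hal led this group of enzymes. These are the 250 bases before the RefSeq start site (GRCm38.p6, chr10:93488518-93488767, plus strand). Capitals mark a match to TATAAA on the opposite strand, with its first base as printed 28 bases before the start. The printed strand itself reads TATAAG across the end of that match.
Hal: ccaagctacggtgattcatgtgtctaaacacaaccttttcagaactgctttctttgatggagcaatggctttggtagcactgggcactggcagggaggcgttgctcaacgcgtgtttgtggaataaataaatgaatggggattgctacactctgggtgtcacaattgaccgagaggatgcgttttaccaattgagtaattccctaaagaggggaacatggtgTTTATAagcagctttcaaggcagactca
TATAAA, searched on both strands, was in 7 of the 29 windows of 300 bases that matched 21 of the 31 leading genes (24.1%) and in 13.6% of all 32851 RefSeq windows.

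Gpt, alanine aminotransferase, read 7.0, 7.65 and 7.09 in NP, 7.73, 7.66 and 7.23 in NPtau, 9.30, 9.75 and 9.43 in LP and 8.27, 8.35 and 7.63 in LPtau. LP lay more than 0.9 above the highest array of any other group, and LPtau overlapped NPtau. The rise in LP was 4.74-fold (limma, adjusted p = 0.00376), LPtau minus NPtau was 0.54 and the interaction was -1.70 (-2.43 to -0.98). Prodh, which oxidizes proline, rose by 1.2 in LP (limma, adjusted p = 0.0172) against 0.12 with taurine. Dbt, a subunit of the enzyme for branched-chain keto acids, rose by 1.19 (limma, adjusted p = 0.0182) against 0.55. Hal, Gpt, Prodh and Dbt were the 4 of 31 measured amino acid breakdown genes that leaned lower, and 0 leaned higher. These 4 made 12.9% of the list, against 4.4% of all genes. The list's median was 0.514 in LP minus NP, 0.407 in LPtau minus NPtau and -0.0787 in the interaction, against -0.0283 over all genes. With single arrays left out the last ran from -0.219 (without NP replicate 3) to -0.029 (without NP replicate 1), and it was 0.00797 with array weights.

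Klhl13, an adaptor of the cullin 3 ubiquitin ligase, read 7.28, 7.46 and 8.16 in NP, 7.53, 8.82 and 7.12 in NPtau, 9.96, 10 and 9.94 in LP and 8.04, 7.81 and 7.82 in LPtau. Its LP arrays agreed within 0.1 and lay above all others. It rose 5.05-fold (limma, adjusted p = 0.017), with an interaction of -2.27 (-3.38 to -1.15). S100g, the calcium-binding protein calbindin-D9k, read 5.78, 5.98 and 5.31 in NP, 5.75, 7.48 and 5.58 in NPtau, 8.28, 7.93 and 7.97 in LP and 6.71, 6.37 and 6.07 in LPtau. It rose by 2.37 in LP (limma, adjusted p = 0.0227) and had an interaction of -2.26. Its lowest NP and NPtau values lay in the range of silent genes. NPtau replicate 2 was the highest array outside LP for both genes.

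Carriers of steroid hormones in plasma were among the lower leaders. Shbg, which binds sex steroids, read 5.29, 5.56 and 5.33 in NP, 5.67, 6.03 and 5.74 in NPtau, 6.31, 6.88 and 7.22 in LP and 5.90, 5.95 and 5.38 in LPtau. It rose in LP by 1.41 (limma, adjusted p = 0.0172), LPtau minus NPtau was -0.07, and the interaction was -1.48 (-2.17 to -0.78). Its NP values and its lowest NPtau and LPtau values lay in the range of silent genes. Serpina6, which binds corticosteroids, had a larger but loose interaction of -2.70 (-5.25 to -0.14). It read 5.27, 7.59 and 9.15 in LP and 5.01 to 5.11 in LPtau, so its difference rested on 2 of the LP arrays. Its LPtau values and its lowest LP value lay in the range of silent genes. With sex as a covariate its unadjusted p was 0.0627.

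Hba-x, the embryonic zeta globin, behaved in the same loose way, with 6.64, 8.06 and 9.50 in LP and 5.58 to 5.90 in LPtau. It had an interaction of -2.20 and an unadjusted p of 0.0698 in limma with sex as a covariate. Its lowest LPtau value lay in the range of silent genes. Acot3, a peroxisomal acyl-CoA thioesterase, had an interaction of -2.36 with a LP minus NP of 1.89 that was not called (limma, adjusted p = 0.0775). Exog, a mitochondrial nuclease (-0.78), and Lipe, hormone-sensitive lipase (-0.67), were 2 genes where LP lay above NP and LPtau lay below NPtau with no overlap in either pair. Pde6c (-1.0), Hoxb5os (-1.18), Psca (-0.80), Prpsap1 (-0.53) and Arhgef19 (-1.38) made up the rest, and each rose in LP (limma, adjusted p at most 0.0493).

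Glutathione transferases, which attach glutathione to reactive compounds, held 5 of 23 measured members that leaned lower (21.7%, against 4.4% of all genes). Another 1 leaned higher (4.35%, against 4.06%). At or above the median level, where 19 of the 23 lay, 2.17% of genes leaned lower and 6.52% higher. Gstt3 read 5.49, 5.75 and 6.14 in NP, 5.85, 6.11 and 5.62 in NPtau, 8.21, 9.16 and 8.69 in LP and 7.45, 7.10 and 5.92 in LPtau. It rose by 2.9 in LP (limma, adjusted p = 0.00785), LPtau minus NPtau was 0.97 and the interaction was -1.93, with 1 LPtau array inside the NPtau range. The lowest NP and NPtau values of Gstt3 lay in the range of silent genes. Gsta4 rose by 1.45 (limma, adjusted p = 0.0413) against 0.29 with taurine.

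Across 48 gene lists, 27 had a median interaction above 0. Counts of leaning members stand beside 4.06% of all genes leaning higher and 4.4% lower. At or above the median level these shares were 6.52% and 2.17%. Cholesterol synthesis and uptake stood highest, with a median of 0.816 over its 21 measured genes, 19 of them positive. All 21 lay at or above the median level, where 63.5% of genes were positive, against 45.9% of all genes. The median was -0.324 in LP minus NP and 0.489 in LPtau minus NPtau, and 4 genes leaned higher and 0 lower. They were Ggps1, which makes geranylgeranyl diphosphate (0.99), Fdps, which makes farnesyl diphosphate (1.26), Cyp51, a lanosterol demethylase (1.52), and Sc5d, which places a double bond late in the pathway (1.07). Ggps1 fell in LP by 1.25 (limma, adjusted p = 0.00984). Hmgcs1 had an interaction of 1.27 ± 0.94 and Sqle one of 0.69 ± 0.57, and neither leaned.

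Arrays within a diet varied widely for this list. Relative to the NP mean, the mean over its genes ran from -0.516 to 0.331 in NP, from -1.01 to 0.144 in NPtau, from -0.85 to -0.121 in LP and from -0.0341 to 0.271 in LPtau. Only LPtau and LP did not overlap. The lowest values in NP, NPtau and LP were all female arrays, and LP held 2 female arrays and LPtau 1. The median of the list was 0.416 without NPtau replicate 1 and 1.12 without NPtau replicate 2. Sc5d read 11.26, 10.74 and 11.70 in NP, 10.41, 11.10 and 11.37 in NPtau, 10.58, 10.76 and 10.67 in LP and 11.61, 11.43 and 11.36 in LPtau. Its promoter is printed as that of 1 of 4 members of this list with an E-box, CACGTG (GRCm38.p6, chr9:42264301-42264550, minus strand, 250 bases before the start; capitals mark the E-box, 98 bases before the start).
Sc5d: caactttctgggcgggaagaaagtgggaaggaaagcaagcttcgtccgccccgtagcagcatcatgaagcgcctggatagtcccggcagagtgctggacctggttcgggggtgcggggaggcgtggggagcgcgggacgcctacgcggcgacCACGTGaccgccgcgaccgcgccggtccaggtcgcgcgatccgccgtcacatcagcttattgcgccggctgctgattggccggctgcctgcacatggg
CACGTG reads the same on both strands. It was in 4 of 20 windows of this list (20%) and in 7.15% of all windows, and the sterol element TCACNCCAC was in 1 of the 20 (5%) and in 1.24% of all.

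Fatty acid and triglyceride synthesis had a median interaction of 0.515 over 26 genes, with 7 leaning higher and 0 lower. Its median was -0.194 in LP minus NP and 0.211 in LPtau minus NPtau. With sex as a covariate the median interaction was 0.208. Acss2, which makes acetyl-CoA from acetate, read 10.19, 9.72 and 10.93 in NP, 9.39, 8.75 and 10.61 in NPtau, 7.51, 8.03 and 7.63 in LP and 9.71, 8.88 and 10.01 in LPtau. LP lay below all other arrays: Acss2 fell 5.89-fold (limma, adjusted p = 0.0236), LPtau minus NPtau was -0.05 and the interaction was 2.51 (1.09 to 3.92). Me1, malic enzyme and a source of NADPH, fell by 1.40 (limma, adjusted p = 0.03) with an interaction of 1.80. Fads2, a desaturase of polyunsaturated fatty acids, fell by 1.70 (limma, adjusted p = 0.0396) with an interaction of 1.99. Scd1, which makes oleic acid, read 7.49, 9.55 and 9.18 in LP against 10.05 to 11.01 in LPtau, with an interaction of 2.63 and a LP minus NP of -2.31 just short of a call (limma, adjusted p = 0.0516). Fads1 (1.77) and Elovl5 (1.71) leaned the same way, while Fasn, fatty acid synthase itself, stood at 0.66 ± 0.47.

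Glucose synthesis and handling had a median of 0.542 over 17 genes (0.34 without LP replicate 1), with 3 leaning higher and 1 lower. Gys2, liver glycogen synthase, read 10.28, 10.32 and 10.12 in NP, 9.94, 10.15 and 9.73 in NPtau, 9.70, 9.68 and 9.78 in LP and 10.28, 10.30 and 10.12 in LPtau. LPtau spanned the same range as NP, whereas LP and NPtau lay lower on average. Gys2 fell by 0.52 in LP (limma, adjusted p = 0.0469) and its interaction was 0.81 (0.45 to 1.18). Fbp1, fructose bisphosphatase, fell by 0.55 (limma, adjusted p = 0.0324) with an interaction of 0.50, and Pck2, mitochondrial PEP carboxykinase, had 0.91. Khk, which phosphorylates fructose, was the member that leaned lower: it rose by 0.68 in LP (limma, adjusted p = 0.0143) and had an interaction of -0.53. Pck1, the cytosolic PEP carboxykinase, had 1.42 ± 0.82, with single low arrays at 10.22 in NPtau and 10.74 in LP.

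The glucocorticoid receptor and its targets had a median of 0.588 over 22 genes, 20 of them positive, and 3 leaned higher. Sgk1, a kinase induced by corticosteroids, read 11.35, 11.04 and 11.16 in NP, 10.01, 10.05 and 10.70 in NPtau, 9.11, 10.03 and 10.21 in LP and 10.69, 9.97 and 10.15 in LPtau. NP lay above the other 3 groups, which overlapped. Sgk1 fell by 1.40 in LP (limma, adjusted p = 0.0382), and its interaction of 1.41 came with an NPtau that was as low as LPtau. Cdkn1a, a brake on the cell cycle, had 1.22, and Cebpb is shared with the cyclic AMP list. Tat, tyrosine aminotransferase, had 1.35 ± 0.76, with NPtau at 10.96, 9.10 and 11.10.

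**Figure D3:**
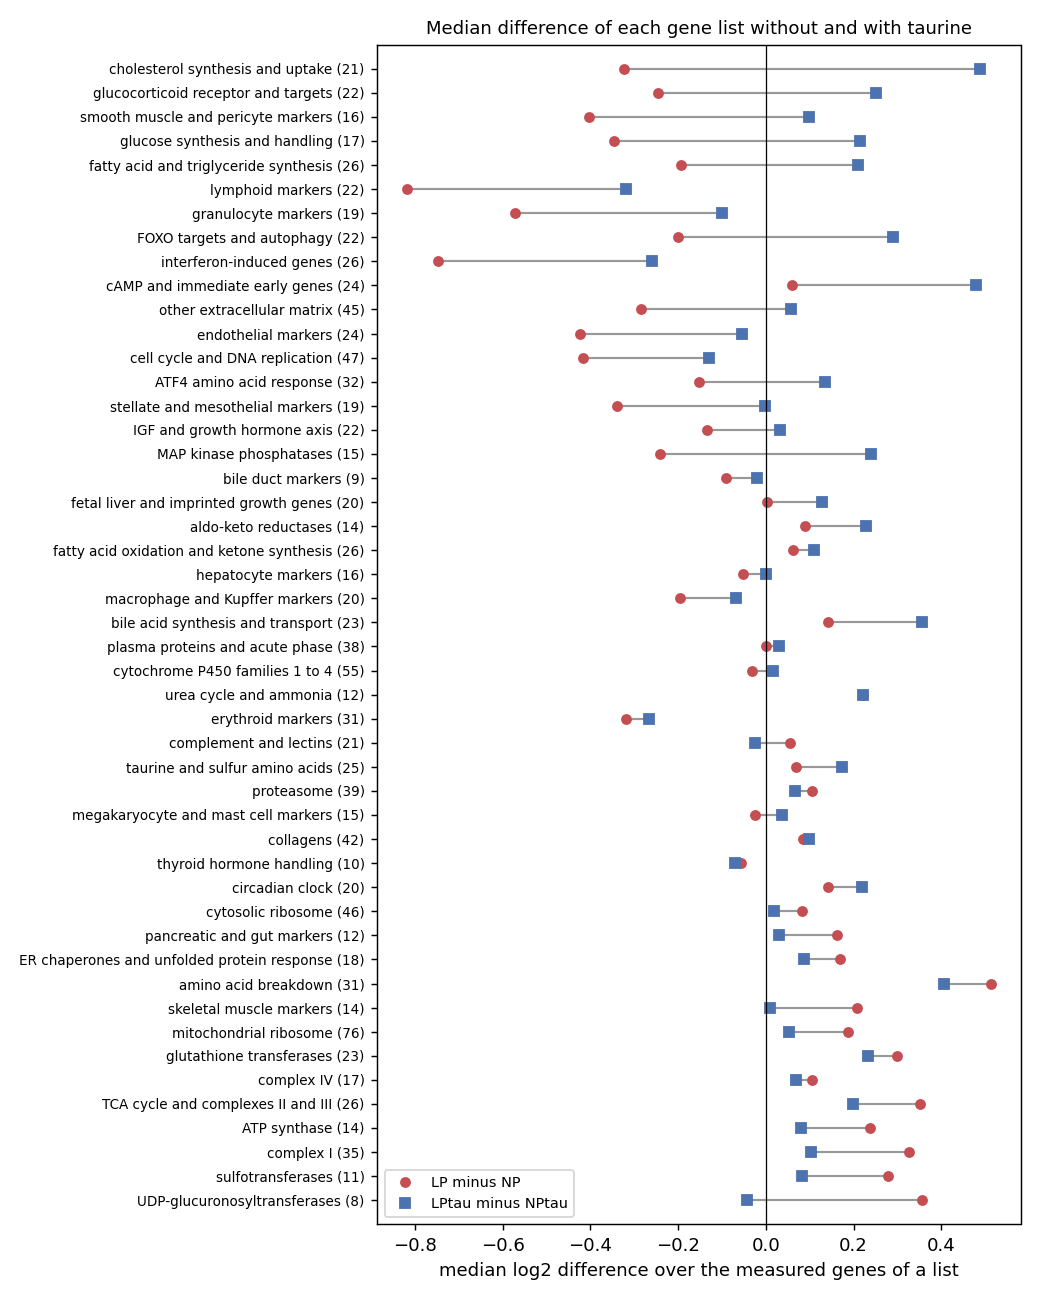
Median log2 difference of each of the 48 gene lists (number of measured genes in brackets) without taurine (red circles, LP minus NP) and with taurine (blue squares, LPtau minus NPtau), ordered by the median interaction. The 12 lists from cholesterol synthesis to endothelial markers have blue to the right of red by more than 0.3, and the mitochondrial lists at the bottom have both medians above 0 with blue to the left.

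At the other end stood the mitochondrial lists. Complex I, the first enzyme of the respiratory chain, had a median interaction of -0.194 over 35 genes: 34 were negative, 4 leaned lower and 0 higher. The median was -0.124 without NPtau replicate 2. Low protein came with higher levels both without and with taurine, a median of 0.326 in LP minus NP and 0.103 in LPtau minus NPtau. Relative to NP, the mean over the list lay between 0.3 and 0.362 in the 3 LP arrays and between 0.11 and 0.255 in LPtau, without overlap, while NPtau ran from -0.0735 to 0.296. Ndufv2, a core subunit, rose in LP by 0.56 (limma, adjusted p = 0.0409) and had an interaction of -0.45. Ndufb10 (-0.47) and Ndufa5 (-0.52) are accessory subunits that leaned the same way.

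ATP synthase had a median of -0.174 (13 of 14 negative, 1 leaning lower), the tricarboxylic acid cycle with complexes II and III -0.172 (24 of 26 negative, 0 leaning) and complex IV -0.146 (14 of 17 negative, 0 leaning). Without NP replicate 1 the medians of the last 2 were -0.1 and -0.0962, and without NP replicate 2 those of ATP synthase and complex IV were -0.284 and -0.245. Without NPtau replicate 1 the TCA cycle list had -0.108, and without NPtau replicate 2 ATP synthase had -0.11. Atp5a1, the catalytic-ring alpha subunit of ATP synthase, rose by 0.49 in LP (limma, adjusted p = 0.0236) against 0.19 with taurine. The mitochondrial ribosome had 6 of 76 genes leaning lower (7.89%, against 4.4% of all genes) and 0 higher. Mrps35, which led them, read 8.05, 8.39 and 8.45 in NP, 8.63, 8.66 and 8.41 in NPtau, 9.08, 9.08 and 8.98 in LP and 8.76, 8.67 and 8.75 in LPtau. Most of these genes lay at or above the median level, where the median interaction over all genes was 0.108. In the muscle arrays of the series the contrast for Ndufb10 was 1.13 (limma, unadjusted p = 0.000867), of opposite sign.

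Conjugating enzymes also had low medians, -0.301 for 8 UDP-glucuronosyltransferases and -0.195 for 11 sulfotransferases. The first was -0.168 without LP replicate 1, -0.169 without NPtau replicate 2 and -0.192 without NP replicate 2, and the second was -0.33 without NPtau replicate 3 and -0.101 without NPtau replicate 2. Ugt2b35 read 8.06, 7.73 and 8.49 in NP, 8.15, 9.04 and 7.87 in NPtau, 9.13, 8.87 and 8.89 in LP and 8.29, 8.51 and 8.13 in LPtau, an interaction of -0.91. Sult1a1, a phenol sulfotransferase, rose in LP by 0.81 (limma, adjusted p = 0.0314) and had -0.49. Sult3a1, described above, went the other way, so the sulfotransferases were split. Of them 1 leaned higher (9.09%, against 4.06% of all genes) and 2 lower (18.2%, against 4.4%). Only 4 of the 8 UDP-glucuronosyltransferases and 3 of the 11 sulfotransferases lay at or above the median level. Among all genes below that level the median interaction was -0.118, and 6.64% leaned lower.

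Markers of vessel cells and of lymphoid cells had positive medians. Smooth muscle and pericyte markers had a median interaction of 0.558 over 16 genes (0.308 with the mean of all probe sets), with 5 leaning higher and 0 lower. Acta2, smooth muscle actin, read 10.14, 10.40 and 10.48 in NP, 8.84, 11.51 and 9.76 in NPtau, 8.27, 8.63 and 8.71 in LP and 10.13, 10.24 and 11.24 in LPtau. LP lay below every other array; NPtau was the widest group. Its interaction was 2.3, and that of Tagln, another contractile protein, 1.67.

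Endothelial markers had a median of 0.356 over 24 genes, with 5 leaning higher and 0 lower. Relative to NP, the list mean lay between -0.506 and -0.424 in LP, and between -0.162 and 0.134 in the arrays of the other 3 groups. Pecam1, an adhesion molecule of endothelial cells, read 7.54, 7.81 and 7.56 in NP, 7.59, 7.27 and 7.74 in NPtau, 6.94, 6.76 and 6.80 in LP and 7.53, 7.61 and 7.80 in LPtau. It fell by 0.80 in LP (limma, adjusted p = 0.0211) with an interaction of 0.92 (0.49 to 1.34). Esam, a junction protein, fell by 1.07 (adjusted p = 0.0227 in limma), Cdh5, the endothelial cadherin, by 1.11 (0.0336) and Lyve1, a hyaluronan receptor of liver sinusoids, by 1.01 (0.0483). Their interactions were 0.90, 0.88 and 0.94.

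Collagens as a list had a median interaction of -0.0253 over 42 genes, 20 positive and 22 negative, with 4 leaning higher and 1 lower. Only 14 of the 42 lay at or above the median level, and among those the median interaction was 0.634. Of the collagens, the basement membrane chains were chosen for description after their values were seen. Col4a1 read 10.40, 10.58 and 10.20 in NP, 10.40, 9.62 and 10.33 in NPtau, 9.81, 10.05 and 9.91 in LP and 10.55, 10.66 and 10.73 in LPtau, an interaction of 1.00. Its partner chain Col4a2 had 0.92. The matrix protein Postn had 1.10, made of a LP minus NP of -0.58 and a LPtau minus NPtau of 0.52, with no overlap in either pair. In all, 7 of 45 matrix genes other than collagens leaned higher and 1 lower.

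Lymphoid markers had a median interaction of 0.456 over 22 genes, with 7 leaning higher and 1 lower. Only 9 of the 22 lay at or above the median level, and among those the median interaction was 0.867. The list was lower under low protein with and without taurine, with medians of -0.819 in LP minus NP and -0.319 in LPtau minus NPtau. Il7r, the interleukin-7 receptor of early lymphocytes, read 7.53, 7.46 and 7.39 in NP, 7.32, 6.68 and 7.36 in NPtau, 5.79, 5.22 and 5.13 in LP and 6.33, 5.70 and 7.51 in LPtau. It fell by 2.08 in LP (limma, adjusted p = 0.0237), with LP replicates 2 and 3 in the range of silent genes. Rag1, the recombinase of developing lymphocytes, fell by 2.01 (limma, adjusted p = 0.0114), with -0.97 in LPtau minus NPtau and its LP values in the range of silent genes. LPtau replicate 3 carried much of the interaction: its list mean was 0.0752 relative to NP, against -0.63 for the lowest LPtau array, and without it the list's median was 0.202.

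Granulocyte markers had a median of 0.454 with 0 of 19 leaning (0.171 without LP replicate 3, 0.28 without NP replicate 1 and 0.293 without LPtau replicate 3), macrophage and Kupffer markers 0.129 with 2 of 20 leaning higher and 1 lower, and erythroid markers -0.00636 with 0 of 31 higher and 3 lower. Clec4f, a lectin of Kupffer cells, leaned higher (1.08) and Marco, a scavenger receptor, lower (-0.88), with a rise of 1.27 in LP (limma, adjusted p = 0.0236). Hepatocyte markers had a median of 0.142 with 0 of 16 leaning. Stellate and mesothelial markers had 0.248 (0 of 19), bile duct markers 0.209 (1 of 9 higher), megakaryocyte and mast cell markers -0.0204 (0 of 15), pancreatic and gut markers -0.0509 (1 of 12 lower) and skeletal muscle markers -0.0857 (1 of 14 lower). The part of cell composition in the leanings of other genes was not tested.

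**Figure D4:**
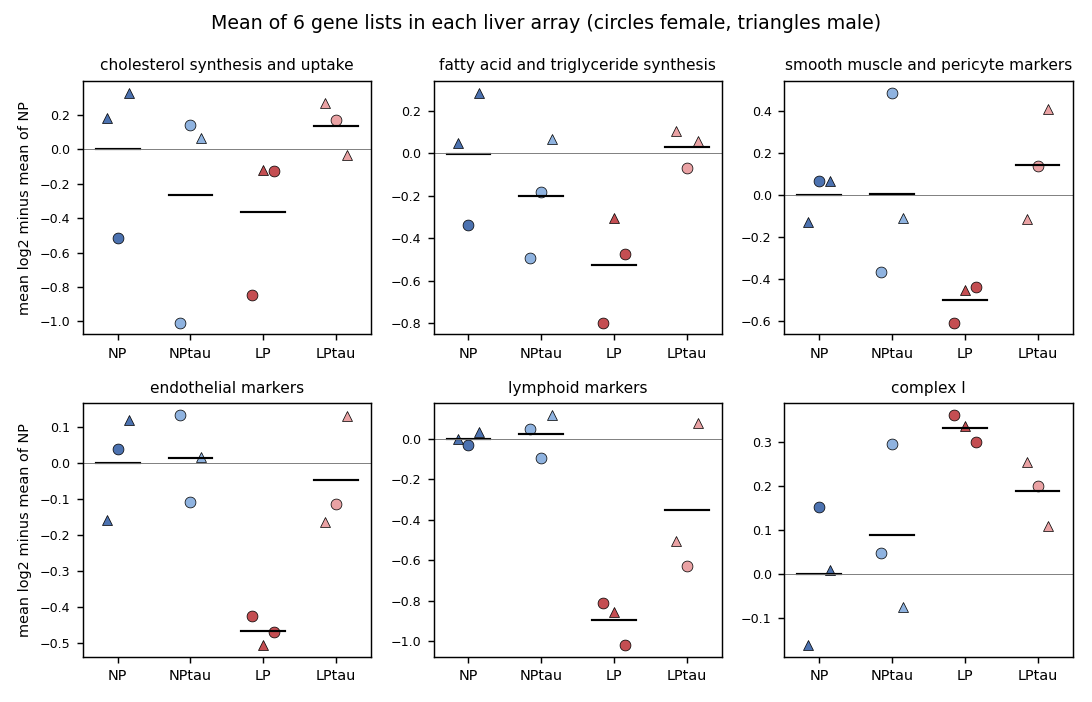
Mean log2 level of 6 gene lists in each liver array, relative to the NP mean, by maternal diet (circles female pups, triangles male pups, lines group means). LP arrays lie below those of the other groups for smooth muscle, endothelial and lymphoid markers and above them for complex I, while the cholesterol and fatty acid lists vary more from array to array.

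Genes of the circadian clock leaned in both directions, 3 of 20 higher and 3 lower, and the median of the list was -0.0324. It was 0.586 among the 14 members at or above the median level and 0.218 with the mean of all probe sets. In the clock, Arntl with its partner switches on genes through E-boxes, the Cry and Per proteins and Bhlhe40 repress it, and Tef and Dbp are output factors. Per3 read 5.36, 5.39 and 5.41 in NP, 5.41, 5.42 and 5.49 in NPtau, 6.06, 5.99 and 6.14 in LP and 5.57, 5.50 and 5.32 in LPtau. LP lay above all other arrays, which stayed within 0.3 of each other and in the range of silent genes. Per3 rose by 0.68 in LP (limma, adjusted p = 0.0108) against 0.02 with taurine, and its interaction was -0.66 (-0.95 to -0.37).

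Tef read 8.75, 8.09 and 8.65 in NP, 8.37, 8.25 and 8.67 in NPtau, 9.79, 9.69 and 9.46 in LP and 8.97, 8.71 and 8.35 in LPtau. It rose 2.22-fold (limma, adjusted p = 0.0236), with an interaction of -0.90, and Dbp had -0.88. Cry1 went the other way, with 7.25, 7.10 and 6.93 in NP, 7.13, 7.09 and 6.75 in NPtau, 7.04, 6.68 and 6.67 in LP and 7.44, 7.72 and 7.22 in LPtau, an interaction of 0.76. Arntl had 0.71 and Bhlhe40 1.66, both highest on average in LPtau.

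The promoters of Tef and Cry1 are shown because these genes leaned in opposite directions while each holds the E-box CACGTG in capitals (GRCm38.p6, 250 bases before the RefSeq start). For Tef one of its windows is chr15:81802423-81802672 on the plus strand, with the E-box 127 bases before the start, and for Cry1 it is chr10:85185055-85185304 on the minus strand, with the E-box at 60.
Tef: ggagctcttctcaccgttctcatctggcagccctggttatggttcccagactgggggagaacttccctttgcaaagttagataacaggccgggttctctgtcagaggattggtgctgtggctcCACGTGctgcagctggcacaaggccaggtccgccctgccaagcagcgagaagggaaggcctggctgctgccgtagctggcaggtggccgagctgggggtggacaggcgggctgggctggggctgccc
Cry1: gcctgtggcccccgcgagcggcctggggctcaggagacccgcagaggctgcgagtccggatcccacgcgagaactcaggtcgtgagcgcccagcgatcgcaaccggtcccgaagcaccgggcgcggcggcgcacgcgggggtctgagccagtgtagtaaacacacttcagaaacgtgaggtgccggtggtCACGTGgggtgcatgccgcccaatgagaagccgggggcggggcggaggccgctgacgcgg
CACGTG was in 6 of the 25 windows that matched 17 of the 20 clock genes (24%), and in 7.15% of all windows. The cyclic AMP element TGACGTCA, also a palindrome, was in 2 of 21 windows of the cyclic AMP list (9.52%), in 0 of 29 windows of the leading genes and in 1.79% of all.

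**Figure D5:**
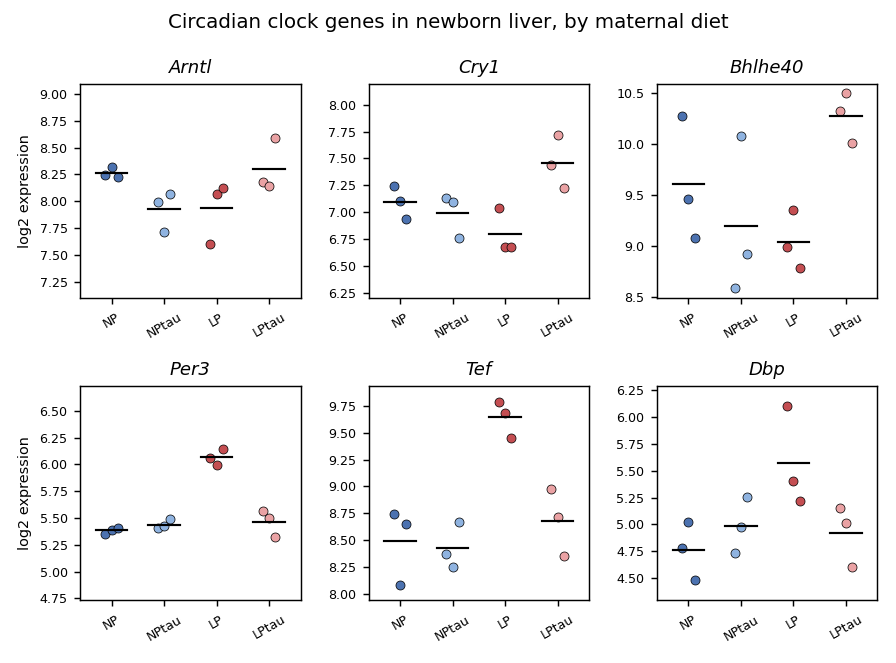
Log2 expression of 6 circadian clock genes in each liver array (points) with the group mean (line), by maternal diet; vertical axes differ and do not start at 0. LP arrays lie highest for Per3 and Tef, LP has the highest mean for Dbp, and LPtau has the highest mean for Arntl, Cry1 and Bhlhe40.

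Genes of taurine and sulfur amino acid handling showed no common lean: the median over 25 genes was -0.0161, with 2 leaning higher and 1 lower. Csad, which makes the taurine precursor hypotaurine, read 11.23, 11.52 and 11.62 in NP, 11.05, 11.06 and 11.40 in NPtau, 10.75, 11.31 and 11.01 in LP and 11.73, 11.69 and 11.54 in LPtau. LPtau lay above LP and NPtau, and NP overlapped LP. The interaction of Csad was 0.92 (0.42 to 1.43; limma, adjusted p = 0.407). Ado, which oxidizes cysteamine to hypotaurine, fell by 1.13 in LP (limma, adjusted p = 0.0497) and had 0.83.

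Slc6a6, the taurine transporter, read 10.88, 10.37 and 9.51 in NP, 10.23, 9.34 and 9.85 in NPtau, 11.02, 10.87 and 10.92 in LP and 10.56, 10.49 and 10.27 in LPtau. It was higher on average under low protein without and with taurine, by 0.68 and 0.63, neither of which was called, and its interaction was -0.06 with a 95% interval of -0.99 to 0.88. Cdo1, which starts cysteine oxidation, had 0.55 ± 0.41. Gnmt, which disposes of excess methyl groups, rose by 1.55 in LP (limma, adjusted p = 0.0175) against 0.78 with taurine, with an interaction of -0.77.

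In the growth factor axis, Igf1 read 8.4, 7.71 and 8.56 in NP, 7.59, 8.74 and 8.96 in NPtau, 7.22, 7.16 and 7.22 in LP and 8.27, 8.45 and 8.65 in LPtau. LP lay below all other arrays, but LP minus NP was not called (-1.02; limma, adjusted p = 0.102), and the interaction was 1.05 (0.07 to 2.02). Igfbp1, an IGF-binding protein near the top of the array's range at 14.20 to 14.62, had 0.26 ± 0.13. Asns, asparagine synthetase and a standard gauge of amino acid shortage, had 0.10 ± 0.18, with LP minus NP at -0.01.

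For some genes the low protein difference was present with taurine as well. Of the 425 genes called in LP minus NP, 356 (83.8%) had the same sign in LPtau minus NPtau, which uses none of the same arrays, against 57.9% of all genes. The 202 raised genes had a median of 0.743 without taurine and 0.23 with it, and the 223 lowered genes -1.01 and -0.193. At an unadjusted p under 0.05 with taurine, 103 of the 425 had the same sign and 6 the opposite. Of all genes, 4.74% passed this threshold with taurine, in either direction. Both p-values came from the same limma fit, which shares a gene's variance across all liver arrays. A gene with a small variance passes both tests more easily, so the count of 103 is no independent support.

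Sult2a2, which sulfates bile acids and steroids, had the largest LP minus NP of these. It read 4.69, 7.34 and 6.01 in NP, 6.20, 5.01 and 4.22 in NPtau, 11.40, 10.13 and 9.79 in LP and 9.38, 9.12 and 8.03 in LPtau. Both low protein groups lay above both normal protein groups. It rose by 4.43 without taurine (limma, adjusted p = 0.0172), and LPtau minus NPtau was 3.7; 1 NP and 2 NPtau arrays lay in the range of silent genes. The interaction was -0.73 ± 0.98, and -0.069 without NP replicate 1 or -1.4 without NP replicate 2. Bckdhb, another subunit of the branched-chain keto acid enzyme, rose by 1.03 (limma, adjusted p = 0.0182) against 0.63 with taurine. Myadm, a membrane protein, fell by 0.67 (limma, adjusted p = 0.028) against -0.53, and Mtfr1, which promotes mitochondrial division, by 0.89 (limma, adjusted p = 0.00471) against -0.53. Ccne2, cyclin E2, fell by 1.59 (limma, adjusted p = 0.00785) against -0.76, and it also leaned higher in the interaction.

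The same contrast in skeletal muscle of the series, fitted on 12 other arrays, also called 0 genes in limma (smallest adjusted p 0.0544; 1194 genes, 6.56%, at an unadjusted p under 0.05). Of the 31 leading liver genes, 16 had the same sign in muscle. At an unadjusted p under 0.05 there, Exog had the same sign and Shbg the opposite sign. Over all genes 40.6% had the same sign in both tissues.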

How the data were processed

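The deposited values are log2 expression of 45101 probe sets, which the authors obtained by RMA (R 2.7.0; the submitters' processing notes also name MAS5, without its role). Total RNA was labelled as biotinylated cRNA for one-colour Affymetrix arrays, per the labels' protocols. Liver and muscle were scaled separately, so levels were not set across tissues.

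Each gene kept its single-symbol probe set of highest mean. The 4 liver groups entered a single limma model (version 3.58.1, R 4.3.3; lmFit and eBayes), with Benjamini-Hochberg adjustment over 18193 genes and a threshold of 0.05. "Leaning" means an unadjusted p under 0.05. The leading genes follow the rule in the text; from each described list up to 3 genes of smallest p were named, and 7 genes were fixed by name. Per3, Cry1, Tef, Bhlhe40, Arntl, Dbp, Pde4d, Scd1, Prodh, Gstt3, Gsta4, Postn, the collagens, Fads1, Elovl5, Cyp51, Hmgcs1, Sqle, Fasn, Pck1, Fbp1, Tat, Mrps35, Cdh5, Dbt and further list members were chosen after their values were seen, as was the rule for genes whose difference held with taurine (92 genes). The members and gene lists were chosen with earlier results of these data known. The fit was tested on simulated data.

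Deviations of same-numbered arrays of different groups correlated above 0.1 in 6 of 18 pairs (correlations of -0.211 to 0.424). Differently numbered arrays were not compared, so whether the replicate numbers pair the arrays was not settled. The main fit treated the arrays as unpaired. No 2 liver arrays held identical values. The number of arrays limits the precision. Alternatives were another normalization, a level filter, probe set means, sex, a replicate block, trended variance, array weights and leaving out each array; arrays of one sex and median subtraction were added after seeing the data.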

Additional observations from a re-analysis of the deposited data

Results flagged for a closer look

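In 9 named genes every LP array lay on one side of every NP array and every LPtau array on the opposite side of every NPtau array. The interactions were 1.28 for Fars2, 1.18 for Tkfc, 1.10 for Postn, 1.00 for Col4a1, 0.92 for Col4a2, 0.71 for Arntl and 0.26 for Igfbp1, and -0.78 for Exog and -0.67 for Lipe. The difference was tested by the interaction term of limma, and none passed the adjusted threshold. Over all 18193 genes, 101 (0.555%) had this arrangement.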

How the results depend on the processing

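The interaction called 0 genes under cyclic loess (1344 genes leaning), a sex covariate (1322), trended variance (1589) and subtraction of array medians. It called 1 with the mean of all probe sets (Fars2) and 5 with array weights (Abca8b, Fars2, Rab30, Sox4 and Sult3a1), where 2881 leaned; 672 leaned among genes at or above the median level. Leaving out 1 array gave 0 to 8 calls and 1034 to 2783 leaning genes, most without LP replicate 1. LP minus NP called 244 genes with a sex covariate, 4727 with array weights and 21 to 2013 without 1 array (21 without NP replicate 1, 2013 without LP replicate 1). The share of leaning genes with LP farthest ran from 40.2% to 81.7% without 1 array. With the replicate number as a block, the interaction called 0 genes with 1680 leaning, and LPtau minus NPtau called 1, Gramd1c (limma, adjusted p = 0.00937). Whether the numbers pair the arrays is not known. Of 644 values of the leading genes under these settings, single-sex arrays included, 0 reversed. The leading genes were chosen on these same arrays, so this is a description and no support. Slc6a6, near 0, ran from -0.37 to 0.32 without 1 array. The 6 highest and 6 lowest list medians, also picked on these arrays, kept their sign in every setting run. The level filter left too few members of the UDP-glucuronosyltransferases and sulfotransferases for a value. The median of all genes was -0.0283, -0.0126 under cyclic loess and -0.123 with array medians subtracted.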

Other observations

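Lists not described above gave these values, beside which 4.06% of all genes and 6.52% of those at or above the median level leaned higher. Of 23 bile acid synthesis and transport genes, 3 leaned higher (13%) and 0 lower: Abcg8, a sterol exporter (1.13), Cyp8b1, which sets the share of cholic acid (1.28), and Abcb4, the phospholipid exporter of bile (0.69). Of 26 fatty acid oxidation genes 3 leaned higher (11.5%): Hadha (0.59), Ehhadh (1.28) and Pex11a (1.2). Of 32 genes of the ATF4 amino acid response 2 leaned higher (6.25%), the amino acid transporter Slc38a2 (1.00) and Nupr1 (1.55), with a list median of 0.297.

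Interferon-induced genes had a median interaction of 0.441 over 26 genes with 0 leaning, and medians of -0.747 in LP minus NP and -0.259 in LPtau minus NPtau; without LPtau replicate 3 the first was 0.199, and without NP replicate 3 it was 0.228. Cell cycle and DNA replication genes had 0.308 over 47, with 41 positive (0.059 without NPtau replicate 2, 0.112 without LPtau replicate 3), and 2 leaned higher (4.26%), Ccne2 (0.83) and Tyms (0.90). FOXO targets and autophagy genes had 0.454 over 22 (0.247 without LP replicate 1), with 0 leaning. Cytosolic ribosome and proteasome genes had medians of -0.0423 and -0.0197, each with 0 leaning.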
